A study of Mus musculus with 12 samples.

Results

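Folate transport and retention were followed through 9 genes, Slc19a1, Slc46a1, Slc25a32, Folr1, Fpgs, Ggh, Abcc1, Abcc4 and Abcc5, which were taken by symbol from the 43432 gene IDs listed for every library. The cells were neural stem cells (NSCs), taken from the subventricular zone of wild-type male C57BL/6 mice of 6 to 8 weeks and grown as a monolayer with EGF and bFGF. They were kept for 4 days in medium with 1.5 µM folic acid (LF), 10 µM (MF, the dose to which both others were compared) or 80 µM (HF). From each dose, polysome mRNA, poly(A) RNA from the pooled heavier fractions of a sucrose gradient run after cycloheximide, and total poly(A) mRNA were sequenced in duplicate, which gave 12 libraries in 6 groups of 2. The study calls the duplicates biological replicates, and the sources used here do not say whether they came from separate mice or separate cultures, so the p-values measure the spread between these libraries.

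Folates are vitamins that carry single carbon units for the synthesis of thymidylate, purines and methionine. They are charged at physiological pH and need carriers to enter a cell. Once inside, they are held there by a chain of glutamate residues that one enzyme adds and another removes, and efflux pumps export the forms with short chains. A second carrier brings folate from the cytosol into mitochondria, where much of the one-carbon supply is made. The genes were read in that order, uptake, mitochondrial entry, retention and export.

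Of the uptake genes, Slc19a1 (ENSMUSG00000001436, chr10:77032241-77061002, plus strand) encodes the reduced folate carrier. Slc46a1 (ENSMUSG00000020829, chr11:78465697-78472059, plus strand) encodes the proton-coupled folate transporter. Folr1 (ENSMUSG00000001827, chr7:101858331-101870788, minus strand) encodes folate receptor alpha, a membrane-anchored receptor that takes up folate by endocytosis. Slc25a32 (ENSMUSG00000022299, chr15:39091231-39112716, minus strand) encodes the mitochondrial folate carrier. Of the retention pair, Fpgs (ENSMUSG00000009566, chr2:32682609-32704145, minus strand) encodes folylpolyglutamate synthase, which adds the glutamates, and Ggh (ENSMUSG00000073987, chr4:20042052-20066750, plus strand) encodes gamma-glutamyl hydrolase, the lysosomal enzyme that removes them. The export pumps are the ATP-binding cassette transporters encoded by Abcc1 (ENSMUSG00000023088, chr16:14361558-14475737, plus strand), Abcc4 (ENSMUSG00000032849, chr14:118482692-118706219, minus strand) and Abcc5 (ENSMUSG00000022822, chr16:20331303-20426394, minus strand). All coordinates are those of the mm10 (GRCm38) build in GENCODE M21, where the 9 genes are protein-coding. Fpgs shares 61 exonic bases, 1.6% of its own, with Eng on the opposite strand and 137, 3.6%, with Mir8093 on its own strand. Slc19a1 and Folr1 lie across from Col18a1 and Anapc15 but share no exonic base with them.

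The polysome libraries report on which of these transcripts carried several ribosomes, so the bases around the annotated start codon are shown for the 8 genes that passed the filter on low counts. Each window is 20 bases of the mRNA, 5′ to 3′, with the start codon in capitals and its genomic position beside the name.
Slc19a1 (chr10:77038397-77038399, plus strand): ggcaacATGgtgcccactgg
Slc46a1 (chr11:78465778-78465780, plus strand): ttgcgcATGgaggggcgcgt
Slc25a32 (chr15:39112499-39112501, minus strand): gagcccATGacaggccaggg
Fpgs (chr2:32694124-32694126, minus strand): aagactATGtcgtgggcgcg
Ggh (chr4:20042174-20042176, plus strand): atcgcgATGgcgaacctggg
Abcc1 (chr16:14361596-14361598, plus strand): gcccgcATGgcgctgcgcag
Abcc4 (chr14:118706107-118706109, minus strand): ggcgagATGctgccggtgca
Abcc5 (chr16:20422431-20422433, minus strand): gtgaagATGaaagatattga

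The context known in vertebrates to favour initiation has a purine ahead of the start codon and a G right after it (ANNATGG or GNNATGG). Of these 8, only the windows of Slc19a1 and Ggh matched it. Folr1 also matched, so that 3 of the 9 did, against 42% of the 19366 protein-coding genes with such a window. Slc46a1 and Abcc1 had the G without the purine, Fpgs, Abcc4 and Abcc5 the purine without the G, and Slc25a32 neither.

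The 6 polysome libraries held 24193468 to 28170296 counts each and the 6 total libraries 20506797 to 23593252. All 9 markers of neural stem cells on the list used were detected in every library. Their summed level was 6514 to 6575 TPM in total LF, 6891 to 7262 in total MF and 7646 to 8257 in total HF. On polysomes it was 8650 to 8658 TPM in LF, 6999 to 7256 in MF and 7067 to 7472 in HF. One library stood apart from its fraction. In a principal component analysis of the 6 polysome libraries, polysome LF replicate 2 scored 77.2 on an axis that held 53.4% of the variance, and the other 5 scored -32.7 to -3.3. Its group was also the least alike, with 20.62% of genes over 2-fold apart in the duplicates of polysome LF and 2.3% to 4.08% in those of the other 5 groups. The main results that rest on LF polysomes are therefore also given without that library. Of the markers of other cells, the summed level of 6 mural and mesenchymal genes was 216.3 to 459.2 TPM in polysome libraries and 43.9 to 84.15 TPM in total libraries, with all 6 detected in every library except that Rgs5 was at 0 in both polysome LF libraries. By dose it was 216.3 to 314.6 TPM in polysome LF, 249.3 to 269.9 in polysome MF and 383.5 to 459.2 in polysome HF. In total mRNA it was lowest in HF, at 43.9 to 57 TPM, against 70.09 to 75.69 in MF and 73.8 to 84.15 in LF. Acta2 made up most of it, at 179.83 to 413.57 TPM in polysome and 28.82 to 56.46 in total libraries. The medians of Pdgfrb, Dcn and Lum were also higher in polysome mRNA, and those of Rgs5 and Col1a1 lower. The sum of 4 neuronal markers was 19.89 to 29.19 TPM in polysome LF, 60.49 to 80.4 in polysome MF and 44.79 to 48.68 in polysome HF, against 33.11 to 39.95 in total libraries. The oligodendrocyte lineage markers summed to 68.68 to 115 TPM in polysome and 113.6 to 137.6 in total libraries. Astrocyte markers summed to 1.98 to 3.21 TPM in polysome and 7.36 to 12.03 in total libraries. The sums for microglia, endothelium and ependyma were at most 2.42 TPM in any library. The mural and neuronal sums moved with fraction and dose, and the stem cell sum moved with dose. The part of all these sums in the results below was not tested.

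The levels of the 9 genes are given first, in TPM, the share of a library's transcripts after division by transcript length, which allows genes to be compared within a library. Abcc5 was the most abundant in total mRNA, at 45.1 ± 6.12 TPM (SD, n = 6 libraries over the 3 doses). Ggh followed at 27.4 ± 1.46, and the ranges of the 2 genes did not overlap. The first place of Abcc5 rests on the length it was divided by, 2833 bases on average in total libraries, which is shorter than its full-length coding transcripts. Abcc4 (17.7 ± 1.3), Abcc1 (15.4 ± 0.66), Fpgs (13.7 ± 1.53) and Slc46a1 (12 ± 1.08) came next, and each overlapped its neighbour in this order. Slc19a1 (7.61 ± 0.753) and Slc25a32 (7.61 ± 1.02) lay below all of these and could not be told apart from each other. In polysome mRNA, Ggh stood first at 48.5 ± 21.3 TPM, then Abcc4 (33 ± 6.71), Abcc5 (32.2 ± 6.99), Abcc1 (27.3 ± 5.46) and Slc19a1 (16 ± 5.47). Slc46a1 (11.1 ± 3.78), Fpgs (9 ± 2.85) and Slc25a32 (3.06 ± 0.911) closed the order, and every gene down to Slc25a32 overlapped the next. The order of the 3 pumps was not the same at each dose. Abcc5 was highest of them in polysome LF (39 TPM, against 29.6 for Abcc4 and 20.9 for Abcc1) and lowest in polysome HF (26.6, against 40.7 and 29.5), and in polysome MF they lay between 28.7 and 31.5. The place of Abcc5 in this order also depends on its assigned length, 998 to 1478 bases in polysome libraries. In scaled counts (CPM), which are not divided by length, Abcc5 had 35 and 26 in polysome LF and 34.7 and 27.7 in polysome MF. In polysome HF it had 27.3 and 26.7 CPM. Without polysome LF replicate 2, polysome levels were 40.2 ± 7.16 TPM for Ggh, 17.8 ± 3.66 for Slc19a1, 12.2 ± 2.99 for Slc46a1 and 10.1 ± 1.38 for Fpgs (SD, n = 5). Slc25a32 did not overlap Folr1 in either fraction.

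**Figure D1:**
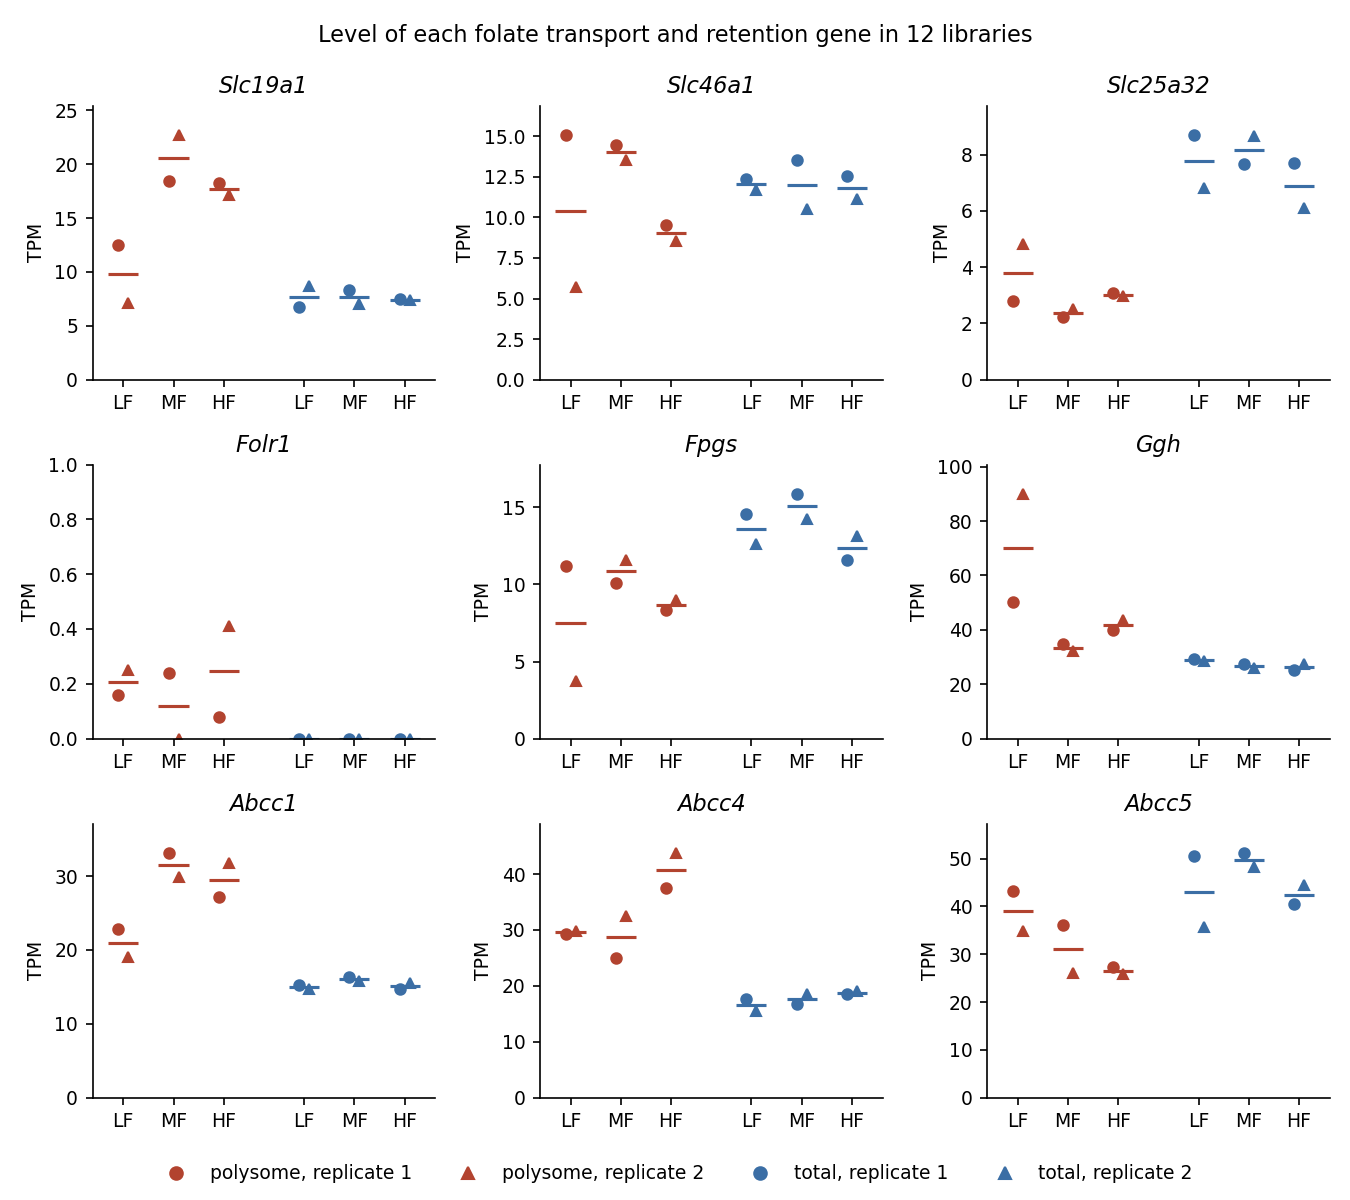
TPM of each of the 9 genes in the 12 libraries, by folic acid dose on the horizontal axis (LF, MF, HF), with polysome libraries on the left in red and total libraries on the right in blue. Circles are replicate 1, triangles replicate 2 and lines the group means; the 2 polysome LF libraries lie far apart for Ggh (50.2 and 90 TPM) and Fpgs (11.2 and 3.77 TPM).

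Folr1 lay at the limit of detection. The 6 polysome libraries held 13 counts of it in all, from 0 to 5 a library (0.0838 CPM, counts scaled to the library total, with an exact 95% binomial interval of 0.0446 to 0.143, counting error only). In the 6 total libraries it had 0 counts, which allows up to 0.0229 CPM over the 6 together (the level of 3 counts) and up to 0.0282 CPM by the same exact interval. It did not pass the filter on low counts, so 8 of the 9 genes were tested. With no such filter it was called higher on polysomes over the 3 doses and at no single dose, in a fit that called 50.6% of 21798 genes, and its fold, set by the 0 counts in total mRNA, is not given. Folr1 is high in the choroid plexus, which lies inside the ventricles, near the zone the cells came from. Of the 6 choroid plexus markers listed, Folr1 among them, the summed level was 1.31 to 2.16 TPM in polysome libraries and 0.89 to 2.17 TPM in total libraries, and Otx2 was at 0 in all 12. In a bulk library, fewer cells that express a gene and less of its RNA per cell cannot be told apart.

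The first comparison asked which of the transcripts were over- or under-represented on polysomes relative to their share of total mRNA. Over the 3 doses together, 6 of the 8 tested genes passed the test (adjusted p under 0.05 and a fold over 1.2), with 4 higher in polysome mRNA (Slc19a1, Ggh, Abcc1 and Abcc4) and 2 lower (Slc25a32 and Abcc5). With transcript length taken into account Abcc5 was no longer called. Such calls were common, since 71% of the 14421 genes tested were called, 32.7% higher and 38.4% lower. Full separation of the polysome and total libraries by TPM is given below for single genes, and its share over all genes was not counted. The median log2 difference was 0.62 over the 8 genes and -0.09 over all genes tested. The values below are log2 differences, polysome minus total, from edgeR's quasi-likelihood fit of scaled counts, each with its standard error. They compare a transcript's share of its own library and carry no absolute amount. In the same comparison without polysome LF replicate 2, 7 genes passed beside 73.8% of all genes, the same 6 and Slc46a1, and the 6 had log2 differences of 1.45 (Slc19a1), 0.89 (Ggh), 1.18 (Abcc1), 1.13 (Abcc4), -1.19 (Slc25a32) and -1.28 (Abcc5). At LF alone, with polysome LF replicate 1 as the sole LF polysome sample, assumed to vary like the other groups, they were 0.97, 1.04, 0.88, 1.04, -1.21 and -1.06 in the same order of genes.

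The reduced folate carrier Slc19a1 had the largest positive difference of the 8 over the 3 doses together. At LF alone it lay below Ggh, Abcc4 and Abcc1. Its level was 12.5 and 7.1 TPM in polysome LF, 18.4 and 22.7 in polysome MF and 18.3 and 17.1 in polysome HF, against 6.77 and 8.66 in total LF, 8.37 and 6.99 in total MF and 7.51 and 7.37 in total HF. Each polysome library was above both total libraries of its dose except polysome LF replicate 2, which lay between them. The difference was 1.35 ± 0.12, or 2.55-fold (edgeR adjusted p = 2.55e-06). By dose it was 0.68 ± 0.21 at LF, 1.79 ± 0.21 at MF and 1.58 ± 0.21 at HF, and it passed at each dose, where 53.6% (LF), 55.2% (MF) and 56.4% (HF) of all genes tested were called. At LF the adjusted p was 0.0185, and it ranged from 2.41e-05 to 0.19 over 20 other settings, 4 of which lost the call.

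The other plasma-membrane carrier, Slc46a1, did not pass the test. It had 15.1 and 5.7 TPM in polysome LF, 14.5 and 13.6 in polysome MF and 9.51 and 8.54 in polysome HF, against 12.4 and 11.7 in total LF, 13.5 and 10.5 in total MF and 12.5 and 11.1 in total HF. The fitted difference was 0.19 ± 0.18 (adjusted p = 0.372), with 0.17 ± 0.32 at LF, 0.59 ± 0.32 at MF and -0.19 ± 0.32 at HF. Over the 3 doses it passed without polysome LF replicate 2, at 0.36 ± 0.08 (adjusted p = 0.000889), and was -0.02 without polysome LF replicate 1. At LF alone it passed without either polysome LF library but in opposite directions, at -0.57 without replicate 1 and 0.67 without replicate 2, where 66.7% and 62.7% of all genes were called. At MF it passed in 3 other fits, at 0.64 and 0.60 without polysome LF replicate 1 or 2 and 0.62 with the compared groups only (adjusted p of 0.000523 to 0.00285), where 68.6%, 68.9% and 71.4% of all genes were called. It missed at MF in the other 17, at up to 0.4.

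The mitochondrial carrier Slc25a32 was lower on polysomes. It had 2.8 and 4.81 TPM in polysome LF, 2.21 and 2.52 in polysome MF and 3.07 and 2.98 in polysome HF, against 8.7 and 6.81 in total LF, 7.67 and 8.67 in total MF and 7.69 and 6.1 in total HF. No polysome library reached the lowest total library. The difference was -1.03 ± 0.15, or 2.04-fold lower (adjusted p = 0.000129). It was -0.73 ± 0.26 at LF, -1.48 ± 0.27 at MF and -0.88 ± 0.27 at HF. The call at LF (adjusted p = 0.0379) was lost under 14 of 20 other settings, at up to 0.205.

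The retention pair split. The hydrolase gene Ggh had 50.2 and 90 TPM in polysome LF, 34.8 and 32.2 in polysome MF and 40.1 and 43.8 in polysome HF, against 29.2 and 28.6 in total LF, 27.6 and 26 in total MF and 25.4 and 27.5 in total HF. Each polysome library exceeded every total library. Its difference was 1.06 ± 0.14, or 2.09-fold (adjusted p = 5.23e-05), with 1.58 ± 0.25 at LF, 0.64 ± 0.24 at MF and 0.97 ± 0.24 at HF. The call at MF (adjusted p = 0.046) was lost under 13 of 20 other settings, at up to 0.18. The synthase gene Fpgs had 11.2 and 3.77 TPM in polysome LF, 10.1 and 11.6 in polysome MF and 8.36 and 9 in polysome HF, against 14.6 and 12.6 in total LF, 15.9 and 14.2 in total MF and 11.6 and 13.1 in total HF. Its difference by scaled counts was -0.18 ± 0.19 and did not pass (adjusted p = 0.411). It passed only without polysome LF replicate 1, at -0.41 (adjusted p = 0.000243), when polysome LF replicate 2 alone stood for LF polysomes. It was 0.00 without polysome LF replicate 2 (adjusted p = 0.968). By TPM the Fpgs libraries did not overlap, though narrowly (11.58 TPM in the highest polysome library and 11.61 in the lowest total library), and the mean log2 difference was -0.68. The median of that TPM difference over 13601 genes was itself -0.37. With polysome LF replicate 2 left out, the Fpgs value was -0.45 and the median -0.33.

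Because scaling applies alike to both genes of a library, the ratio of Fpgs to Ggh within each library does not depend on it. A TPM ratio still depends on the length assigned to each gene in each library. For Fpgs that length was on average 0.15 log2 units longer in polysome libraries, which lowers its TPM there, and for Ggh it was unchanged. The ratio of their TPM was 0.223 and 0.042 in polysome LF, 0.291 and 0.359 in polysome MF and 0.209 and 0.206 in polysome HF, against 0.5 and 0.442 in total LF, 0.575 and 0.548 in total MF and 0.457 and 0.478 in total HF. The highest polysome library lay below the lowest total library. The mean log2 ratio was -2.42 ± 1.1 in polysome mRNA and -1.01 ± 0.15 in total mRNA (SD, n = 6 each), a difference of -1.42, or a ratio 2.67-fold lower in polysome mRNA. An exact two-sided permutation test over the 12 libraries gave p = 0.00216, the smallest its 924 regroupings allow. Any full separation of the fractions gives that p. Fpgs and Ggh were each already separated by TPM, in opposite directions, so the test adds nothing to those values. How often other pairs of genes separate in this way was not counted. Without polysome LF replicate 2, the difference was -0.99, or 1.98-fold lower, and the exact permutation p was 0.00216, which is again the smallest possible, over 462 regroupings.

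**Figure D2:**
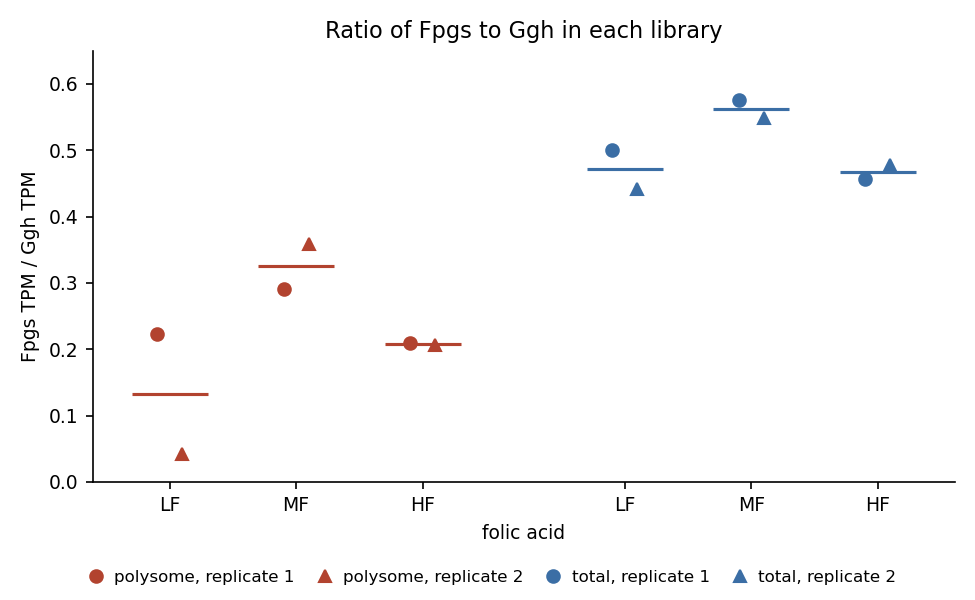
Ratio of Fpgs TPM to Ggh TPM (vertical axis, no unit) in each library, by folic acid dose, with polysome libraries in red on the left and total libraries in blue on the right. Circles are replicate 1, triangles replicate 2 and lines the group means; polysome libraries run from 0.042 to 0.359 and total libraries from 0.442 to 0.575.

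Of the exporters, Abcc1 and Abcc4 were both higher on polysomes. Abcc1, also known as MRP1, had 22.8 and 19.1 TPM in polysome LF, 33.1 and 29.8 in polysome MF and 27.1 and 31.8 in polysome HF, against 14.7 to 16.4 in the 6 total libraries. The difference was 1.15 ± 0.08, or 2.21-fold (edgeR adjusted p = 3.8e-07), with 0.80 ± 0.13 at LF, 1.32 ± 0.13 at MF and 1.32 ± 0.13 at HF. Abcc4, or MRP4, which also exports cyclic nucleotides, had 29.3 and 29.8 TPM in polysome LF, 25 and 32.5 in polysome MF and 37.6 and 43.8 in polysome HF, against 15.5 to 19 in total mRNA. Its difference was 1.14 ± 0.09, or 2.2-fold (adjusted p = 7.69e-07), with 1.08 ± 0.15 at LF, 0.96 ± 0.15 at MF and 1.38 ± 0.15 at HF. Neither gene's polysome libraries overlapped its total libraries by TPM, a separation not counted over all genes. Both calls held at each dose and under the 19 other settings of the comparison over the 3 doses.

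**Figure D3:**
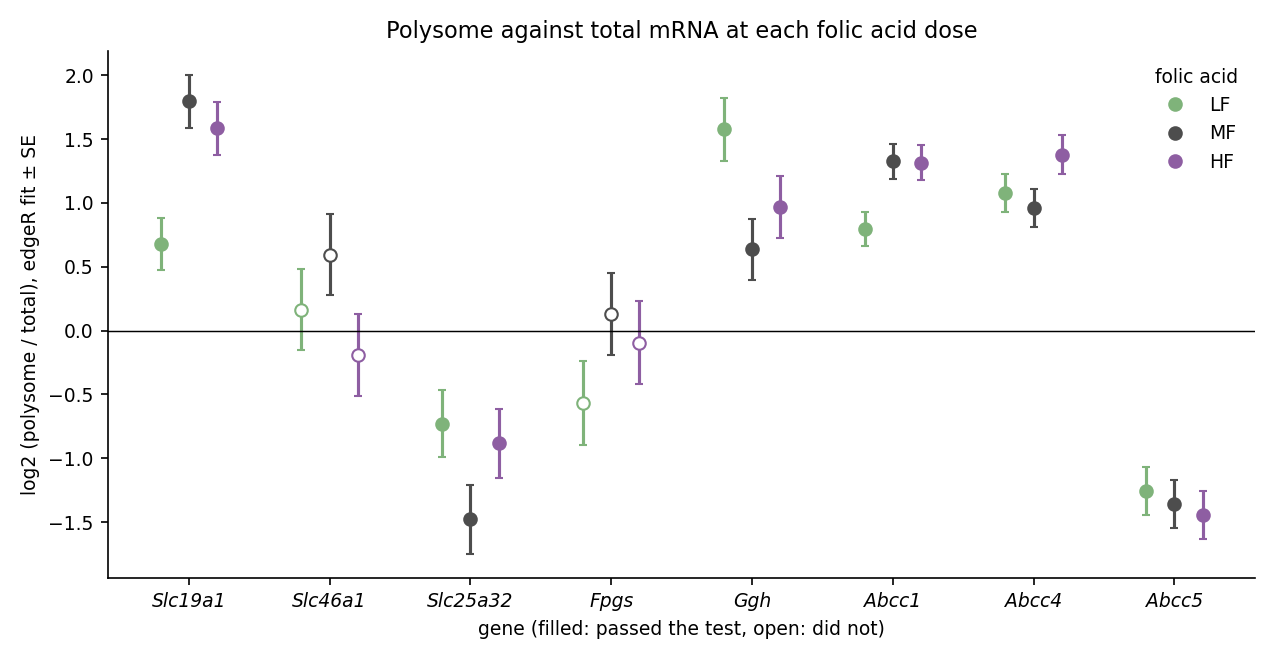
Log2 difference between polysome and total mRNA (edgeR fit, vertical axis) for the 8 tested genes at LF, MF and HF, with bars of 1 standard error. Filled symbols passed the test and open ones did not; Slc19a1, Ggh, Abcc1 and Abcc4 lie above 0 at every dose, Slc25a32 and Abcc5 below 0, though Abcc5 rests on the transcript length used.

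Abcc5, or MRP5, was the other gene called lower on polysomes, and its call depended on transcript length. In scaled counts the difference was -1.35 ± 0.11, or 2.55-fold lower (adjusted p = 1.27e-06), and it passed at each dose. By TPM it was smaller. Abcc5 had 43.2 and 34.8 TPM in polysome LF, 36.2 and 26.1 in polysome MF and 27.3 and 25.9 in polysome HF, against 50.4 and 35.6 in total LF, 51.2 and 48.3 in total MF and 40.5 and 44.4 in total HF, and the fractions overlapped. The mean log2 TPM difference was -0.50, and the median over all genes was -0.37. An exact two-sided permutation test gave p = 0.013 for a difference from 0. The difference of Abcc5 from that median was not tested.

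TPM divide by the effective length that RSEM assigns to a gene in each library, an average over its transcripts weighted by their estimated abundance, and scaled counts do not. For Abcc5 this length was 998 to 1478 bases in the 6 polysome libraries and 2697 to 3130 in the 6 total libraries, with means of 1278 ± 179 and 2833 ± 168 (SD, n = 6 each). Polysome libraries thus had a length 2.23-fold shorter. The exact two-sided permutation p was 0.00216, the smallest possible. Any full separation of the fractions gives that p, so it adds nothing to the ranges. The Abcc5 length was examined after the values were seen. Lengths that did not overlap between fractions were found for 18.9% of the 14418 genes with lengths, but a mean fall of more than 1 log2 unit for 0.714%, and Abcc5 ranked 68 from the lowest. Of the other 7 tested genes, Abcc4 was the only one whose fractions did not overlap in length, at 5270 to 5296 bases in polysome and 5437 to 5452 in total libraries. With length entered as an offset, the Abcc5 difference was -0.19 (adjusted p = 0.168) over the 3 doses, 0.15 at LF, -0.35 at MF and -0.37 at HF, and none passed. The other 5 calls over the 3 doses were kept, in a fit that called 70.5% of all genes.

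GENCODE M21 lists 13 transcripts at Abcc5, of which 11 are named in the deposited tables. Of those 11, Abcc5-202 (5811 bases) and Abcc5-204 (5372 bases) carry the coding sequence of 4308 bases, while the coding transcripts Abcc5-201 (1728 bases) and Abcc5-203 (1136 bases) have 1537 and 624 coding bases. Both short coding ones start near the 5′ end of the gene and stop within it. The others of the 11 have no annotated coding sequence, from Abcc5-208 (4526 bases, a retained intron) down to Abcc5-210 (338 bases). Gene-level tables do not say which transcript the reads came from, and whether the shorter length reflects other isoforms on polysomes or the estimate itself was not tested.

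**Figure D4:**
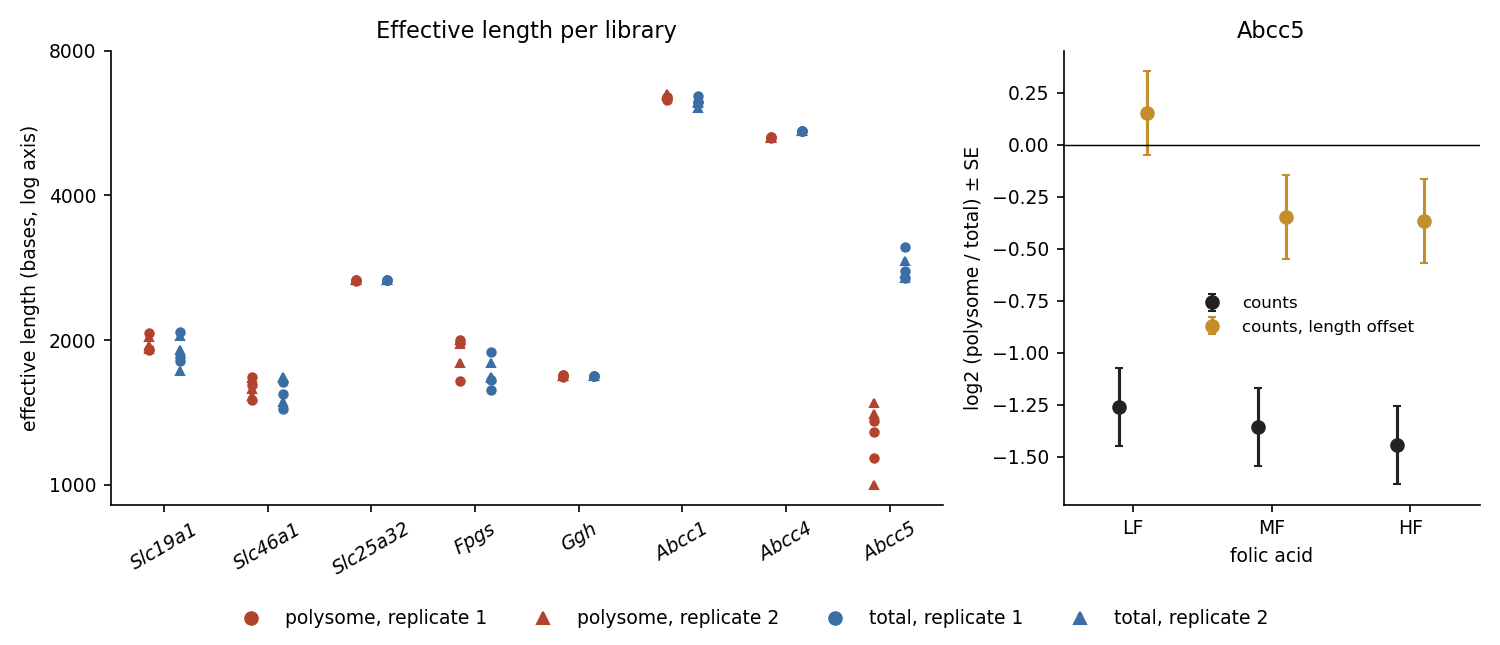
Left, effective length in bases (log axis) of the 8 tested genes in each polysome (red) and total (blue) library; Abcc5 runs from 998 to 1478 bases in polysome libraries and from 2697 to 3130 in total libraries. Right, the Abcc5 log2 difference between polysome and total mRNA at each dose with 1 standard error, from counts alone and with a length offset, which brings it to 0.15, -0.35 and -0.37.

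The second question was whether the dose of folic acid moved these genes. In total mRNA no member passed in LF against MF (0.00719% of the 13912 genes tested were called), HF against MF (0.0863%) or HF against LF (1.79%). The log2 differences of the 8 genes lay between -0.14 and 0.12 in LF against MF, -0.23 and 0.10 in HF against MF, and -0.16 and 0.18 in HF against LF. Standard errors ran from 0.06 to 0.14. None had an unadjusted p under 0.05 in the first 2 comparisons and 1, Abcc4, had one in HF against LF (0.18 ± 0.07, adjusted p = 0.232 by edgeR's quasi-likelihood test). Of all genes, 6.27%, 6.98% and 12.6% had one in LF against MF, HF against MF and HF against LF. Abcc4 had 18.5 and 19 TPM in total HF, against 17.6 and 15.5 in total LF.

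In polysome mRNA the spread was far larger, with a biological coefficient of variation of 0.231 against 0.0433 in total mRNA. The duplicates differed over 2-fold in 20.62% of genes in polysome LF, 4.08% in polysome MF and 3.72% in polysome HF. The 3 doses shared an estimate of the spread, so that of polysome LF also entered HF against MF. No member passed in LF against MF (0.0223% of 13433 genes called), HF against MF (0%) or HF against LF (0.0149%). With the compared groups only, HF against MF called 5.32% of all genes, 2 members among them. At an unadjusted p under 0.05 there were 3, 1 and 4 of the 8, against 17.3%, 3.37% and 14% of all genes.

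The 3 in LF against MF were Slc19a1, Ggh and Abcc1, and in each of them both LF libraries lay outside all 4 MF and HF libraries by CPM after TMM scaling, as they did for 30.1% of all genes. Slc19a1 had 17 and 10.8 CPM in polysome LF, 28.4 and 31.6 in polysome MF and 25.7 and 24.2 in polysome HF. Its log2 difference, LF against MF, was -1.12 ± 0.29 (adjusted p = 0.171), which is 2.18-fold lower. Ggh ran the other way, at 59.7 and 113.5 CPM in polysome LF, 43.6 and 39 in polysome MF and 49.9 and 54.3 in polysome HF, with a difference of 1.05 ± 0.30, or 2.08-fold (adjusted p = 0.185). Abcc1 had 104 and 92.5 CPM in polysome LF, 155.8 and 137.6 in polysome MF and 128.1 and 151.8 in polysome HF, a difference of -0.59 ± 0.19 (adjusted p = 0.215).

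These 3 genes came closest to a dose effect, and how close depended on the fit. DESeq2 called Slc19a1 and Ggh, a fit of all 12 libraries called the 3 of them, and a fit without polysome LF replicate 2 called Slc19a1 alone, at -0.82 on the log2 scale, where Ggh was 0.53 (adjusted p = 0.0526), Abcc1 -0.50 (0.0772) and neither was called. Of all genes, DESeq2 called 4.97%, the fit of all 12 libraries 13.1% and the fit without that library 6.83%. Without polysome LF replicate 1, when the library that stands apart was the sole LF sample, 6 of the 8 passed, beside 50.5% of all genes. Fpgs and Slc46a1 turned on that library most. Fpgs had 3.77 TPM in it against 11.2 in the other polysome LF library, and Slc46a1 had 5.7 against 15.1.

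In HF against MF on polysomes, Abcc4 had 146.4 and 170.4 CPM in polysome HF, against 98.1 and 122.6 in polysome MF. The libraries did not overlap, as was so for 54.6% of all genes in either direction, and the difference was 0.52 ± 0.20 (adjusted p = 0.948 by edgeR). Slc46a1 had 10.5 and 9.93 CPM in polysome HF, against 18 and 14.9 in polysome MF, a difference of -0.68 ± 0.41 (adjusted p = 0.948). Both passed in 3 other fits, without either polysome LF library and with the 2 compared groups alone, at an adjusted p down to 0.0397 for Abcc4 and 0.0352 for Slc46a1. Those fits called 5.13%, 5.68% and 5.32% of all genes. The remaining 6 genes lay between -0.31 and 0.37.

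The 4 in HF against LF on polysomes were Slc19a1, Abcc1 and Abcc4, with differences of 0.86 ± 0.29, 0.52 ± 0.19 and 0.49 ± 0.20, and Ggh, with -0.72 ± 0.30 (adjusted p of 0.268, 0.299, 0.332 and 0.343 by edgeR). Without polysome LF replicate 2 these were 0.56, 0.43, 0.53 and -0.19, and none of the 4 passed. Slc46a1 passed there, at -0.75 (adjusted p = 0.026), in a fit that called 15.4% of all genes.

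Translation efficiency (TE), the polysome level relative to the total level, was tested as the dose term by fraction term in one fit of the 12 libraries. No member passed in LF against MF (0.236% of 14421 genes called), HF against MF (0%) or HF against LF (0.0971%). The TE differences lay close to those on polysomes. In LF against MF they were -1.12 ± 0.29 for Slc19a1 (adjusted p = 0.147), 0.94 ± 0.34 for Ggh (0.24), -0.53 ± 0.19 for Abcc1 (0.232) and 0.75 ± 0.38 for Slc25a32 (0.356). Without polysome LF replicate 2 these were -0.83 for Slc19a1, 0.40 for Ggh, -0.45 for Abcc1 and 0.26 for Slc25a32. In HF against MF the range was -0.78 for Slc46a1 to 0.59 for Slc25a32, both with an adjusted p of 0.982. The Slc46a1 value passed without polysome LF replicate 1 or 2, at -0.78 in each (adjusted p of 0.0424 and 0.0407), where 2.88% and 2.99% of all genes were called. In HF against LF, without polysome LF replicate 2, Slc19a1 (0.61, adjusted p = 0.0345) and Slc46a1 (-0.85, 0.0129) passed, beside 17.2% of all genes. The 3 comparisons share libraries and are not independent of each other. The Slc19a1 TE difference in LF against MF passed in DESeq2 and without either polysome LF library, at an adjusted p down to 2.83e-05, and was above 0.05 elsewhere, up to 0.56. Of all genes, 4.49% were called in DESeq2, 46.2% without polysome LF replicate 1 and 6.76% without polysome LF replicate 2.

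**Figure D5:**
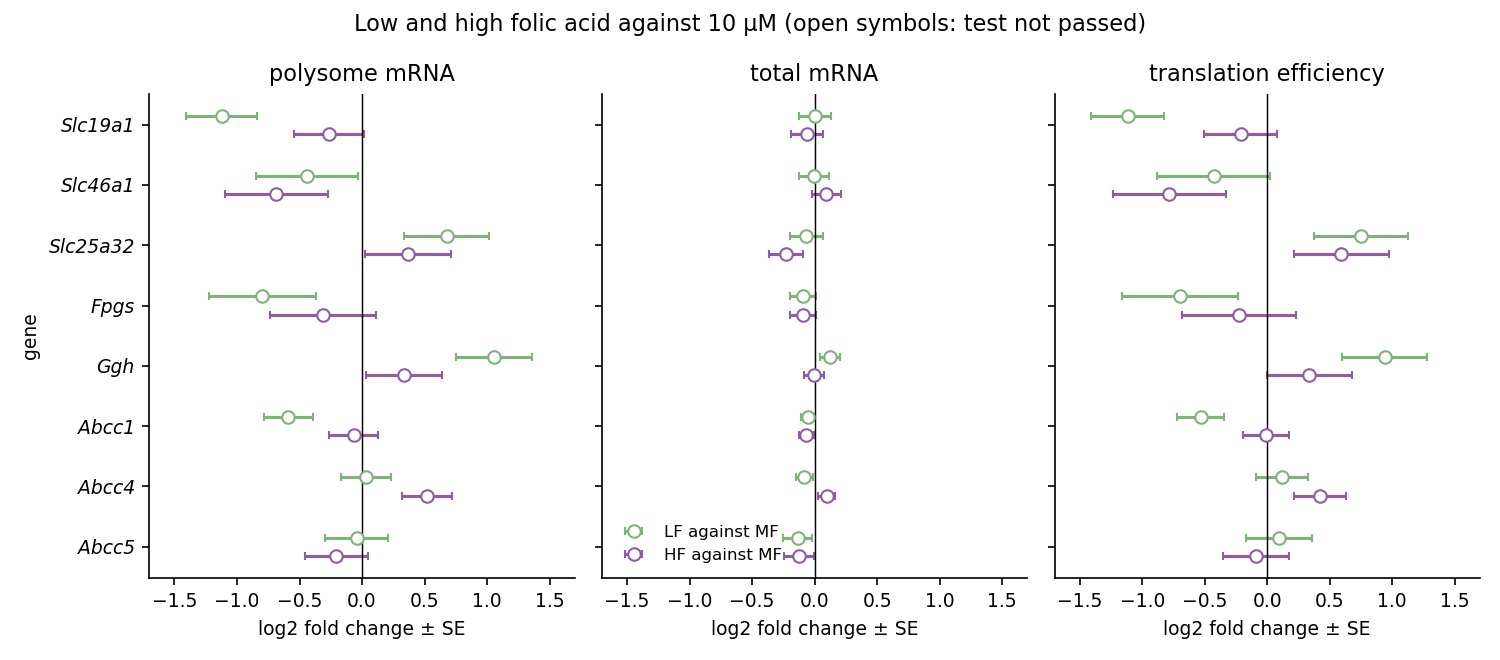
Log2 fold changes (horizontal axis, bars of 1 standard error) of the 8 tested genes, LF against MF in green and HF against MF in purple, for polysome mRNA, total mRNA and translation efficiency. All symbols are open because none passed the test; in polysome mRNA Slc19a1 in LF lies at -1.12 and Ggh at 1.05, while all values in total mRNA lie between -0.23 and 0.12.

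Relatives of these genes were set beside them from a list of 16, further carriers, folate receptors, ABC pumps and the endocytic receptors that take up bound folate. Of these, 8 passed the filter on low counts. In polysome against total mRNA over the 3 doses, 2 were higher and 3 lower, with a median log2 difference of -0.17. Among all genes tested, 32.7% were called higher and 38.4% lower there. Abcg2, a pump that also exports folates, was higher by 0.86 ± 0.14 (adjusted p = 0.000269), and Izumo1r, which belongs to the folate receptor family but binds a sperm protein in the egg, by 1.01 ± 0.25 (0.00387). Cubn, which encodes the scavenger receptor cubilin, had a difference of -2.17 ± 0.21 (4.47e-06), Abcc10 -0.87 ± 0.21 (0.00366) and Lrp2, the megalin gene, -0.42 ± 0.12 (0.0111). No relative passed in any comparison of doses.

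The enzymes that use the folate once it is inside were described from a list of 21, of which 20 were tested. Over the 3 doses, 10 were higher and 5 lower in polysome mRNA, at a median of 0.39. That comparison called 71% of all genes, 32.7% higher and 38.4% lower. The 3 with the largest folds were Mthfd2 (15.6-fold), a methylenetetrahydrofolate dehydrogenase, Aldh1l2 (8.56-fold), a formyltetrahydrofolate dehydrogenase, and Shmt2 (7.78-fold), a serine hydroxymethyltransferase. Across doses the only enzyme called was Mthfd1l in total mRNA, higher in HF than in LF by 0.35 (adjusted p = 0.0274 by edgeR). In that comparison 1.79% of all genes were called.

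The genes most like each member over the 12 libraries were found among 12997 protein-coding genes, by Pearson's r of log2 CPM, as a description. All points share the same libraries, and the step between fractions weighs most in r. Slc19a1 ran closest to Mrpl12 (r = 0.996) and Mrpl2 (0.995), proteins of the mitochondrial ribosome. Abcc1 ran closest to Rrp1 (0.997) and Ddx56 (0.995), which act in ribosome assembly in the nucleolus. The nearest genes were Cdc42 and Micu2 for Ggh (both 0.994), Ndrg1 (0.994) and Mmp19 (0.99) for Abcc4, and Stard9 (0.99) and B3gat2 (0.989) for Abcc5. For Slc25a32 they were Swt1 (0.986) and Pura (0.985), for Fpgs Hps6 (0.986) and Ptk7 (0.985), and for Slc46a1 Sirpa (0.975) and Frmd8 (0.962).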

How the data were processed

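Polysome and total poly(A) mRNA of mouse NSCs at 3 folic acid doses were sequenced in 12 libraries, grouped by the sample titles. Per the labels and the methods of the study, the authors made stranded paired-end libraries, aligned reads to mm10 with Bowtie2 2.2.9 and quantified genes with RSEM 1.3.0; the gene annotation and the strand setting are not given in the sources used here. The deposited tables give the authors' expected counts (estimated, between 4.036% and 5.952% of values not whole), TPM (the authors' length- and depth-scaled values) and an effective length for each of 43432 gene IDs, of which 42462 (97.77%) were matched to GENCODE M21 for symbols. Without a known strand setting, overlapping genes on opposite strands cannot be fully told apart.

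Expected counts were rounded and tested with edgeR 4.0.16 (quasi-likelihood, TMM, filterByExpr, robust; R 4.3.3), with Benjamini-Hochberg adjustment over all genes tested: 13912 in total, 13433 in polysome and 14421 in all libraries. A call needed an adjusted p under 0.05 and a fold over 1.2. Dose comparisons used the 6 libraries of a fraction, and TE and polysome against total all 12, as 6 groups. CPM are TMM-scaled counts. The exact permutation tests, of the Fpgs to Ggh ratio and of the Abcc5 length and TPM, enumerated all regroupings of the libraries. The intervals used scipy 1.17.1 with a confidence level of 95%. The alternatives were DESeq2 1.42.0, limma 3.58.1 voom, other scalings, no filter, a replicate block, a length offset, fewer or more groups in the fit, and each library left out. The fits were also run on simulated counts with a single common spread for all genes and libraries, and no result here rests on that run. Start codon windows were read from GENCODE M21 transcripts (GRCm38), from the principal transcript among those the tables name.

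The 9 genes, the further lists and the tests were chosen with earlier results of these data known. All 9 members were to be described in every library, relatives and enzymes by their counts with called ones named (at most 3 enzymes per comparison, by fold), and the 2 most similar protein-coding genes per member. The effective lengths, TPM differences and non-overlap shares were added after the values were seen. Depth limits each value by counting error only where an interval is given.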

Additional observations from a re-analysis of the deposited data

How the results depend on the processing

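The 8 tested genes gave 104 results, computed 1808 times under other settings, of which 1657 kept their direction and side of the threshold, 43 kept their side but changed sign by less than the standard error, 37 lost their call, 53 gained one and 18 changed sign, by more than the standard error or with a call. No member passed in any comparison of doses in the fits described. In polysome LF against MF, 2 passed with DESeq2 (beside 4.97% of all genes), 2 with no low-count filter (522 of 19271 genes) and 3 with all 12 libraries (13.1%). In polysome HF against LF, 2 passed with all 12 libraries (1320 of 14421 genes). In polysome HF against MF, 2 passed with the compared groups only (5.32%). With DESeq2, 1 passed in TE LF against MF (4.49%) and 1 in TE HF against LF (716 of 14421 genes). Leaving out 1 library at a time gave 0 to 1 in total LF against MF (Abcc5, without total LF replicate 1, adjusted p = 0.022), 0 to 2 in polysome HF against MF, 0 to 6 in polysome LF against MF, 0 to 5 in polysome HF against LF, and 0 to 1, 0 to 6 and 0 to 4 in TE HF against MF, LF against MF and HF against LF, where the 6, 5, 6 and 4 came without polysome LF replicate 1 and the counts in HF against MF without either polysome LF library. The cause of these differences was not tested. Over all genes, polysome LF against MF called 3, against 668 with DESeq2 and 231 with the replicate block, and total HF against MF called 12, against 23 and 87. The replicate block changed the call of none of the 104 results. The numbers were not taken to pair the libraries, since deviations of same-numbered libraries correlated between -0.14 and 0.138 over 15 pairs of groups. With the block (exact sign-flip test, permuting within pairs) the Fpgs to Ggh difference was -1.42, with p = 0.0312, the smallest its sign flips allow. Over the libraries left out, that difference ran from -1.61 to -0.99.

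With the length offset, Slc46a1 and Fpgs in total HF against LF were -0.024 and -0.14, Abcc5 in polysome LF against MF 0.30 and in polysome against total at LF 0.15. Leaving out 1 library moved total LF against MF from -0.225 to 0.083 for Slc25a32, -0.34 to 0.048 for Abcc5 and -0.157 to 0.001 for Abcc4, and Abcc5 in total HF against LF from -0.17 to 0.21. It moved Slc46a1 from -1.20 to 0.069 in polysome LF against MF, -0.75 to 0.52 in polysome HF against LF, -1.21 to 0.072 in TE LF against MF, -0.85 to 0.43 in TE HF against LF, -0.57 to 0.67 in polysome against total at LF and -0.021 to 0.36 over the 3 doses. In polysome HF against LF, Slc25a32 ran from -0.69 to 0.17 and Fpgs from -0.049 to 1.32, and in TE HF against LF from -0.52 to 0.34 and -0.053 to 1.33. Scaling by library totals alone lowered the polysome minus total log2 differences by 0.10 on average; the signs of the 6 called genes held under each scaling.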
